A study of Mus musculus with 30 samples.

Results

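The proteasome genes described here are the 39 mouse genes named Psma, Psmb, Psmc, Psmd or Psme that encode the rings, the regulatory cap and the activators of the proteasome. They were listed by gene symbol, without a filter on their values, but earlier results of these data were known when the list was made. Of the 39 listed genes, 38 were measured by a probe set annotated to 1 gene symbol, among 18193 genes on the array. Psme2 had no such probe set and has no value here. RNA of fetal lung and fetal liver from CD-1 mice was hybridised to Affymetrix mouse 430_2 arrays, with 15 arrays per tissue. Pregnant dams were gavaged from gestation day 1 to 17 with the potassium salt of perfluorooctane sulfonate (PFOS), a persistent fluorinated surfactant, at 5 mg/kg/day (the lower dose) or 10 mg/kg/day (the higher dose), in 0.5% Tween 20. Controls were the dams at 0 mg/kg/day of the same series, listed with the same 0.5% Tween 20 and the same dosing days, 1 to 17. Tissue was collected on gestation day 18, 1 day after the last dose. Each array held RNA pooled from 3 fetuses of 1 litter, with 5 litters per tissue and dose, so a litter is the replicate and pooled fetuses are not. The labels name no genotype, and they do not say whether the lung and liver arrays of a dose came from the same litters.

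The proteasome is the protease that degrades proteins tagged with ubiquitin in the cytoplasm and nucleus. Its core particle is a barrel of outer alpha rings, which gate the entrance, and inner beta rings, where Psmb5, Psmb6 and Psmb7 carry the catalytic sites. In immune cells, or after interferon, Psmb8, Psmb9 and Psmb10 replace these catalytic subunits to form the immunoproteasome, which favours peptides that fit class I antigen presentation. The regulatory cap has a base, with a ring of ATPases (Psmc genes) that unfold the substrate, and a lid, whose subunit Psmd14 removes ubiquitin. Psme genes encode activators that open the core without ubiquitin. When proteasome activity falls, the transcription factor encoded by Nfe2l1 is known to raise the genes of core and cap together.

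Promoters of 4 of the members that rose in exposed liver are shown first, because these are the genes whose calls withstood the most changes of litters (Psmd4, Psmc4, Psmd8) or that were called at both doses and hold ETS letters (Psmd11). Each is the RefSeq sequence (GRCm38.p6) from 250 bases before to 50 bases after the annotated start, 5′ to 3′ on the gene's own strand. Capitals mark an ETS site (CCGGAAG), the promoter element known by its letters CCAAT, or an antioxidant response element core (TGACNNNGC), each searched on both strands.
Psmd4, chr3:95042565-95042864, minus strand: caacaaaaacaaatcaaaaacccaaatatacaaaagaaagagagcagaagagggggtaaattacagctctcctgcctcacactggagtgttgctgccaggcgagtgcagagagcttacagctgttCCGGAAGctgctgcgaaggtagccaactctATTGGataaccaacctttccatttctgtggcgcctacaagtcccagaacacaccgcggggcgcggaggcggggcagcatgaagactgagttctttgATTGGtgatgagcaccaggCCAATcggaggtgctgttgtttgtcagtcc
Psmc4, chr7:28050043-28050342, minus strand: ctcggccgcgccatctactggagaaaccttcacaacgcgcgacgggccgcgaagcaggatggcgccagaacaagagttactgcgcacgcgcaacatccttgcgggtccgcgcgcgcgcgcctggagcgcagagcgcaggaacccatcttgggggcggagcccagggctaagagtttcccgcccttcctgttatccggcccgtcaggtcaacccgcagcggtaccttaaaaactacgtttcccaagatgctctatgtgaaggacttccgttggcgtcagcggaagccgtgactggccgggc
Psmd8, chr7:29180624-29180923, minus strand: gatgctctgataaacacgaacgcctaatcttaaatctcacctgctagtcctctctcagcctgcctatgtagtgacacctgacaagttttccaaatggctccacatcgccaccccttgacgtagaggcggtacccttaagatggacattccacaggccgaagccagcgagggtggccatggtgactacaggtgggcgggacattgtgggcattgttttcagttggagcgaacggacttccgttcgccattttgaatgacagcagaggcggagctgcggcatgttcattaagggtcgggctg
Psmd11, chr11:80428365-80428664, plus strand: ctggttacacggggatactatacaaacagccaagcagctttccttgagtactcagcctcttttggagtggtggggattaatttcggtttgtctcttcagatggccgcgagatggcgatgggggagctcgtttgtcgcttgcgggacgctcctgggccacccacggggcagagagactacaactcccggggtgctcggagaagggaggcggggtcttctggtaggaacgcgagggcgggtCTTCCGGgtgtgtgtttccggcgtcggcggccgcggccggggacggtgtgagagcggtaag
The Psmd4 window held 1 ETS match and 3 CCAAT matches, and the Psmd11 window held 1 ETS match. The interferon-stimulated response element core, described next, also matched once in the Psmd4 window and is left in lower case. No motif was found in the windows of Psmc4 and Psmd8, which says only that these letters are absent from these 300 bases.

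A promoter was listed for 33 of the 39 members, and not for Psmb1, Psmb2, Psmb7, Psmc3, Psmd3 and Psmd7. The ETS letters CCGGAAG were in 11 of the 33 promoters (33.3%), against 11.9% of 17492 promoters of protein-coding genes and 9.12% of 27025 promoters of all genes. They were found in Psmc1, Psmc2, Psmc6, Psmd2, Psmd4, Psmd6, Psmd11, Psmd12, Psmd13, Psme3 and Psme4, which are genes of the cap and of the activators, and in no promoter of an alpha or beta subunit. TGACNNNGC was in 5 of 33 (15.2%, against 13.2% of protein-coding genes) and CCAAT in 12 of 33 (36.4%, against 39%). Of the motifs linked to interferon, the interferon-stimulated response element core was in 3 (9.09%, against 3.4%) and the gamma-activated site (TTCNNNGAA) in 2 (6.06%, against 7.83%). The former was in Psmb3, Psmd4 and Psme1, none of them an immunoproteasome gene, and the latter in Psmb8 and Psmd2. These shares are a description of the sequence, and a match is not a measured binding site.

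Probe set levels are log2 values, so a difference of 1 is a doubling. All 38 measured members were brighter than the 40th percentile of the probe sets of each of the 15 liver and 15 lung arrays, and all 38 were tested in both tissues. The tissues matched their labels. Hepatocyte markers summed to log2 levels of 15.68 to 15.76 in liver and 12.1 to 13.97 in lung, and lung epithelium markers to 14.49 to 14.79 in lung and 6.82 to 7.78 in liver. Control litters 2, 3 and 5 of the liver stood apart. The summed stomach markers reached 11.5 in the control livers against 8.27 to 8.59 in exposed livers, led by Cym, a stomach protease, at 11.27, 9.5 and 8.2 in those 3 litters against 5.05 and 5.28 in the others. Liver results are therefore also given without control litters 2, 3 and 5. Only control litters 1 and 4 remain in those fits, which then have less power to call a change. Lung arrays varied in cardiac muscle markers, which summed to 10.58 to 13.45. They also varied in hepatocyte markers, which were highest in litter 1 of the control lungs (13.8) and of the lower dose (13.97). The other lung arrays had 12.1 to 13.55. Whether those litters held liver RNA was not tested, and a limit on the tissue comparisons follows from it.

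In fetal liver 5 of the 38 members at the lower dose and 7 at the higher dose rose after PFOS, all of them genes of the core particle or the cap (limma, Benjamini-Hochberg adjusted p under 0.05 over all 13269 genes tested in liver). Of all genes tested, 6.07% were called at the lower dose (4.26% higher and 1.81% lower) and 10.5% at the higher dose (5.3% higher, 5.22% lower). Psmd4, the ubiquitin receptor of the cap, had the largest change at both doses, at 1.29-fold and 1.4-fold over the control. The base ATPase Psmc4, called at both doses too, was at 1.27-fold and 1.22-fold. Changes were small throughout. The median change of the 38 members was 0.14 on the log2 scale at the lower dose and 0.11 at the higher dose, where the median of all genes tested was -0.01 and -0.02. The only member that fell was the immunoproteasome subunit Psmb10, at the higher dose. Both doses are compared with the same 5 control litters. Below, some genes are said to lie clear of the controls. Naming genes by their change or p makes this likely, and the share of all genes without overlap was not counted.

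**Figure D1:**
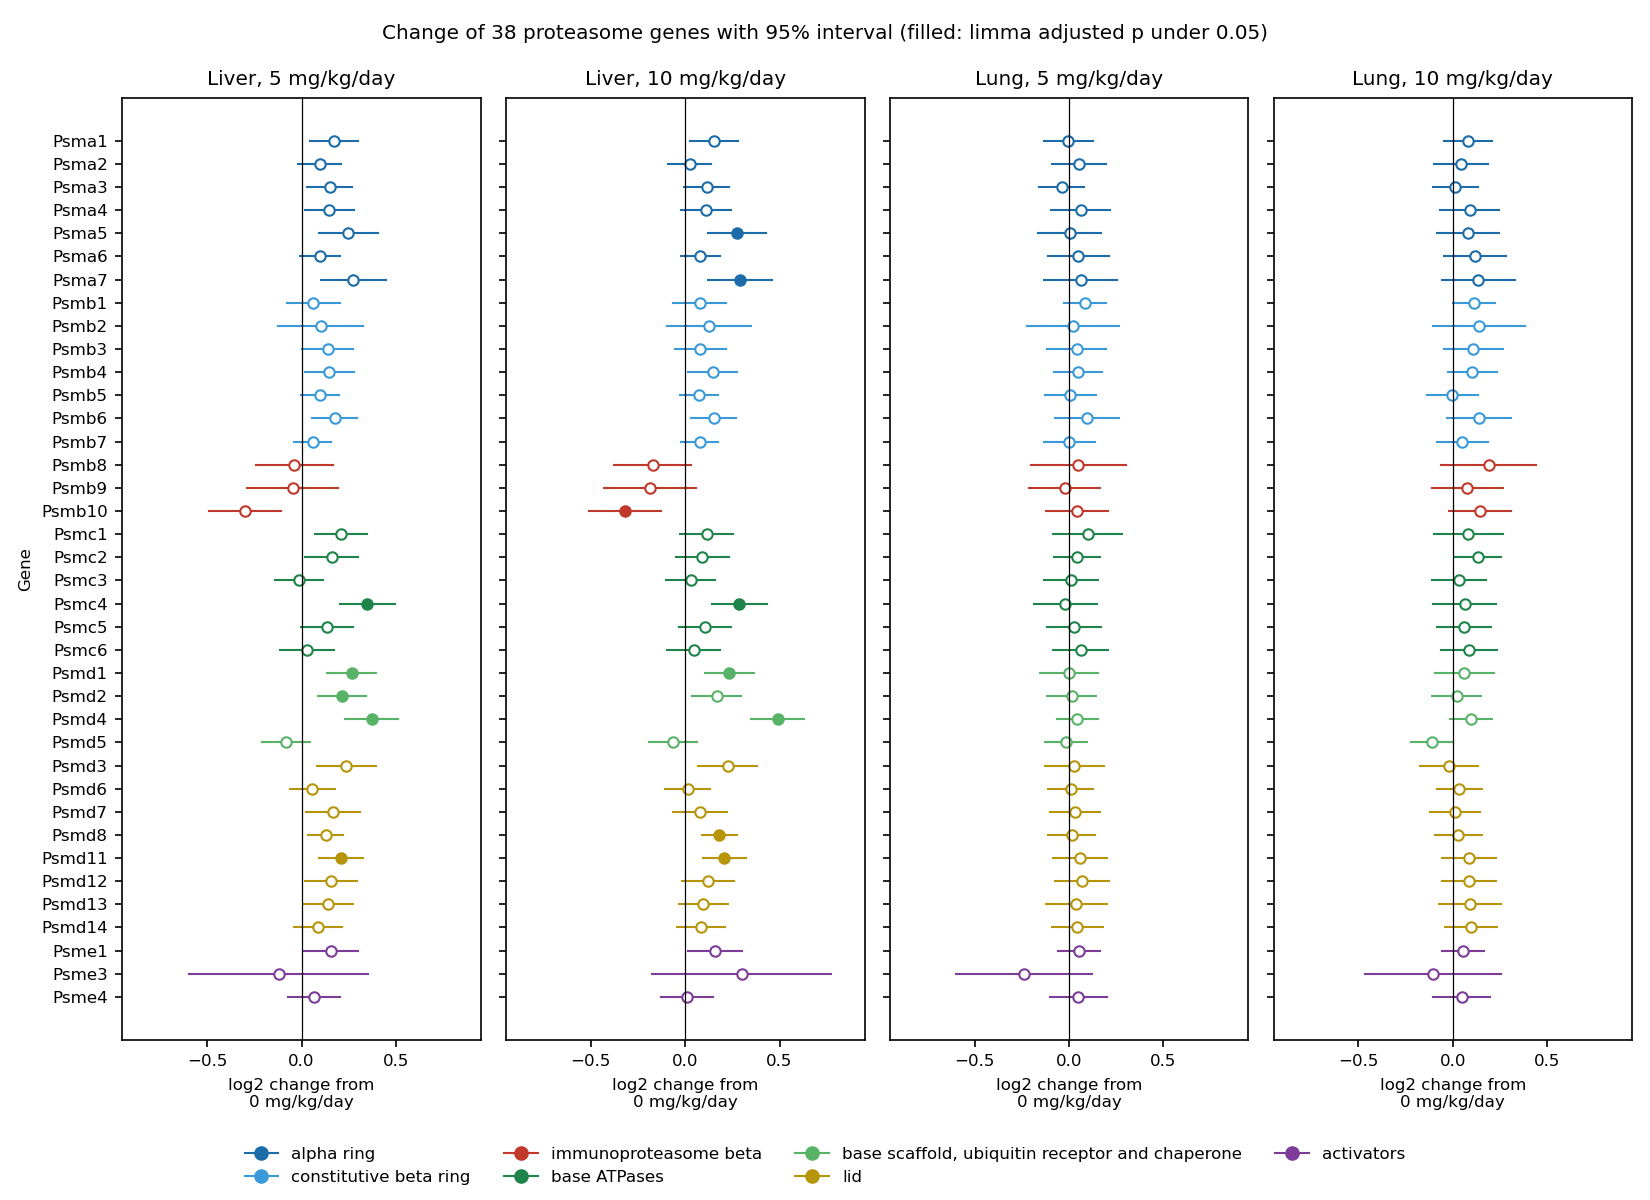
Change from 0 mg/kg/day (log2, horizontal axis) of each of the 38 measured proteasome genes (vertical axis, coloured by role) in liver and lung at 5 and 10 mg/kg/day, with its 95% interval. Filled points are called (limma adjusted p under 0.05), which holds for 5 and 8 genes in liver and for 0 in lung at either dose.

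Among the base genes, Psmd4 changed by the most. Its log2 level was 9.44, 9.39, 9.4, 9.46 and 9.54 in control litters 1 to 5. It was 9.78, 9.89, 9.88, 9.69 and 9.86 in the litters at the lower dose, and 10.04, 9.83, 9.88, 10.11 and 9.82 in those at the higher dose. All 10 exposed litters were above all 5 control litters. The change was 0.37 (limma adjusted p = 0.00266, SE 0.07) at the lower and 0.49 (adjusted p = 0.000131, SE 0.07) at the higher dose. Both calls held on leaving out any 1 litter (adjusted p from 0.00244 to 0.00935 and from 0.000201 to 0.000625). Without control litters 2, 3 and 5 the change at the lower dose was 0.37 with an adjusted p = 0.0624, against 4.2e-05 to 0.0624 over 12 other settings. A second Psmd4 probe set changed by 0.37 and 0.49, and the dimmest of the 3 by -0.05 and 0.13. Averaged over the 3, the Psmd4 change at the lower dose was 0.23 and still called.

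The ATPase Psmc4, a motor subunit of the base, had levels of 8.91, 9.02, 8.96, 9.0 and 9.25 in the control livers. The litters at the lower dose had 9.44, 9.38, 9.35, 9.3 and 9.42, all above the controls. At the higher dose the values were 9.27, 9.29, 9.34, 9.46 and 9.22, and litter 5 lay just under the highest control litter. The change was 0.35 (limma adjusted p = 0.00492, SE 0.07) and 0.29 (adjusted p = 0.0125, SE 0.07). Psmc4 was called at both doses without any 1 litter, without control litters 2, 3 and 5 and under every other setting tried, with adjusted p at most 0.0193 and 0.038 over the 12 settings. Its second probe set changed by 0.32 and 0.27. No other ATPase of the 6 passed the test, and Psmc3, named because it was the only one below its control mean at the lower dose, changed by -0.01 and 0.03.

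The base scaffold gene Psmd1 had 8.91, 8.9, 8.72, 8.84 and 8.97 in control litters 1 to 5. Levels were 9.09, 9.15, 9.19, 9.1 and 9.15 at the lower dose and 9.18, 9.1, 9.16, 9.14 and 8.93 at the higher dose, so that litter 5 at the higher dose fell within the control range. The change was 0.27 (limma adjusted p = 0.0156, SE 0.06) and 0.23 (adjusted p = 0.0222, SE 0.06). At the higher dose the call was lost without exposed litter 1 (adjusted p = 0.0524) or 3 (0.0571) or control litter 3 (0.0546), within a range of 0.0073 to 0.0571 over the litters left out. Without control litters 2, 3 and 5 the adjusted p was 0.13 and 0.151 at changes of 0.26 and 0.23. The other scaffold gene, Psmd2, rose by 0.21 (limma adjusted p = 0.0471, SE 0.06) at the lower dose and had a change of 0.17 (adjusted p = 0.0989) at the higher dose. Its 5 litters at the lower dose, from 9.57 to 9.62, lay above the controls, from 9.32 to 9.46. That call was lost in each of the 10 fits that left out 1 litter (adjusted p from 0.0531 to 0.0967, with changes of 0.20 to 0.23), and without control litters 2, 3 and 5 (0.302). Averaged with a dim second probe set, Psmd2 changed by 0.12 (0.216) at the lower dose, and the call was lost there with no filter (0.0794) and with quantile normalization (0.0874). Psmd5, a chaperone of base assembly named because it was the base gene with negative changes, stood at -0.08 and -0.07.

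In the lid, Psmd11 and Psmd8 were called. Psmd11, a scaffold-like lid subunit, had 10.02, 9.96, 9.96, 10.03 and 10.01 in control litters 1 to 5. At the lower dose the levels were 10.18, 10.21, 10.27, 10.17 and 10.21, and at the higher dose 10.29, 10.19, 10.22, 10.29 and 10.04. No exposed litter overlapped the controls, though litter 5 at the higher dose came within 0.01 of them. The change was 0.21 (SE 0.05) at each dose, with limma adjusted p = 0.0308 and 0.0233. Psmd11 has 8 probe sets here, and the second brightest changed by 0.09 and 0.25 and the next by 0.30 and 0.29. The call at the lower dose was lost with that second probe set (adjusted p = 0.380), with the probe sets averaged (0.233, at a change of 0.10), with no filter (0.0572) and with quantile normalization (0.0525). Leaving out exposed litter 2, 3 or 5 (adjusted p = 0.0600, 0.0728, 0.0669) or control litter 1, 2, 3 or 5 (0.0517, 0.0720, 0.0661, 0.0510) ended the call at the lower dose. At the higher dose it ended without exposed litter 1, 3 or 4 (0.0571, 0.0530, 0.0584) or control litter 2 or 3 (0.0542, 0.0503), and without control litters 2, 3 and 5 together the adjusted p was 0.315 and 0.265.

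Psmd8, a lid subunit, had the narrowest control levels of the called genes, 9.6, 9.65, 9.63, 9.62 and 9.61. The levels were 9.79, 9.74, 9.7, 9.78 and 9.75 at the lower dose and 9.81, 9.83, 9.79, 9.85 and 9.75 at the higher dose, with no overlap with the controls at either dose. The change was 0.13 (limma adjusted p = 0.109, SE 0.04) at the lower and 0.18 (adjusted p = 0.016, SE 0.04) at the higher dose. The call at the higher dose held on leaving out any 1 litter (adjusted p from 0.0173 to 0.0397) and was lost without control litters 2, 3 and 5 (0.143). The 8 lid genes were all above 0 at both doses, with medians of 0.15 and 0.11, and 6 of them passed the test at neither dose. Psmd14, the ubiquitin-removing lid enzyme, was among those, at 0.09 and 0.08.

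**Figure D2:**
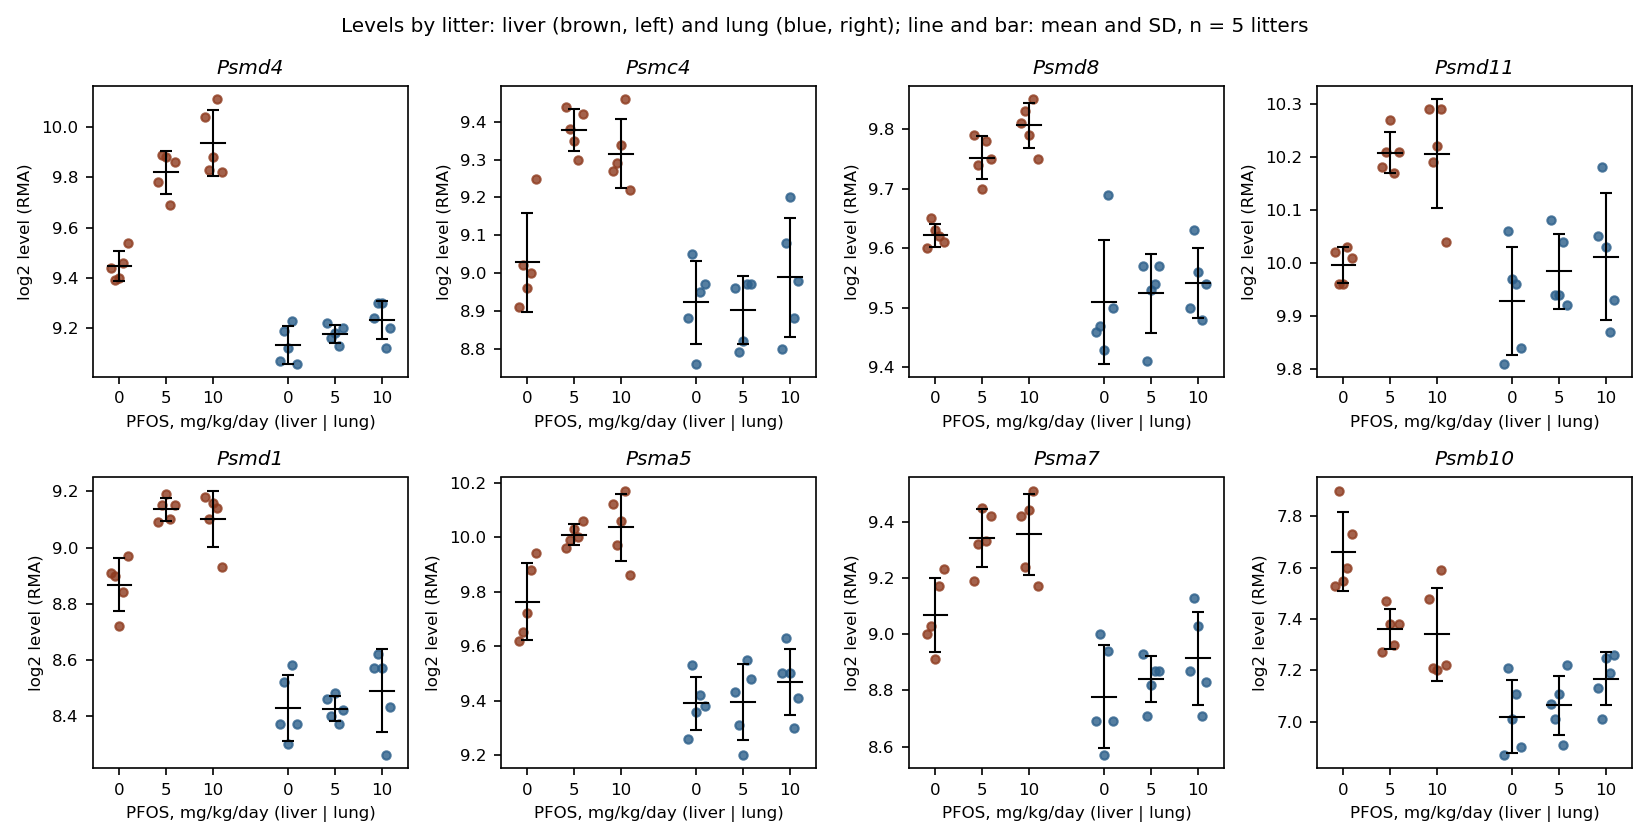
Log2 level (vertical axis) of the 8 proteasome genes shown by litter at 0, 5 and 10 mg/kg/day (horizontal axis), with liver on the left and lung on the right of each panel, and the mean and SD of 5 litters. Liver levels of Psmd4 in all 10 exposed litters lie above the 5 controls, and its lung levels overlap at every dose.

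In the core particle, 2 of the 7 alpha ring genes rose at the higher dose and 0 at the lower dose, and no gene of the constitutive beta ring was called at either dose. Psma5 had 9.62, 9.65, 9.72, 9.88 and 9.94 in the control livers, 9.96, 9.99, 10.03, 10.0 and 10.06 at the lower dose, and 10.12, 9.97, 10.06, 10.17 and 9.86 at the higher dose. The lower dose was clear of the controls, and litter 5 of the higher dose was not. The change was 0.25 (limma adjusted p = 0.0572, SE 0.07) and 0.28 (adjusted p = 0.0242, SE 0.07). Without exposed litter 1, 3 or 4 (adjusted p = 0.0563, 0.0545, 0.0620) or control litter 1, 2 or 3 (0.0616, 0.0641, 0.0501) the call at the higher dose was lost, and it appeared at the lower dose without control litter 4 (0.0477) or 5 (0.0279). Psma7, another alpha ring gene, changed by 0.28 (limma adjusted p = 0.0564, SE 0.08) and 0.29 (adjusted p = 0.0308, SE 0.08), from a control mean of 9.07 ± 0.13 (SD, n = 5 litters) to 9.34 ± 0.10 and 9.36 ± 0.14. All 5 exposed litters at each dose were above the control mean, and the ranges overlapped. The Psma7 call at the higher dose was lost without exposed litter 1, 3 or 4 (0.0652, 0.0762, 0.0763) or control litter 1, 2 or 3 (0.0671, 0.0657, 0.0759), and at the lower dose it appeared without exposed litter 1 (0.0425) or control litter 5 (0.0372). Without control litters 2, 3 and 5 the adjusted p at the higher dose was 0.133 for Psma5 and 0.202 for Psma7. With probe sets averaged Psma5 changed by 0.17 (0.115) and Psma7 by 0.25 (0.0548), neither of them called. The second Psma5 probe set changed by 0.24 at each dose, and the dimmest of the 3 by -0.02 and -0.001. The second Psma7 probe set gave 0.21 (0.152) at the higher dose. Both genes were called at the lower dose in 5 of the 12 other settings.

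No catalytic gene of the constitutive core passed the test at either dose. Psmb6, which carries the caspase-like site, had levels from 8.9 to 9.0 in the control livers, 9.09 to 9.19 at the lower dose and 8.97 to 9.21 at the higher dose. Its change was 0.18 (limma adjusted p = 0.0765) and 0.15 (adjusted p = 0.105), and the latter was called without exposed litter 5 (0.0442, at 0.19). At the lower dose Psmb6 was called in 2 of the 12 other settings, the stricter filter (0.04998) and the trended, robust spread (0.0484). Psmb5, the chymotrypsin-like subunit, changed by 0.10 and 0.07 (adjusted p = 0.279 and 0.398), and Psmb7, the trypsin-like subunit, by 0.06 and 0.08 (0.537 and 0.336). Psmb4, a beta subunit with no catalytic site, changed by 0.15 at each dose (0.183 and 0.157). All 7 alpha and all 7 constitutive beta genes had changes above 0 at both doses, with medians of 0.15 and 0.11 in the alpha ring and 0.10 and 0.08 in the beta ring.

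Of the inducible subunits, 1 fell in liver. Psmb10, which replaces Psmb7 in the immunoproteasome, had 7.53, 7.9, 7.55, 7.6 and 7.73 in control litters 1 to 5. It had 7.27, 7.47, 7.38, 7.3 and 7.38 at the lower dose, all under the controls, and 7.48, 7.21, 7.2, 7.59 and 7.22 at the higher dose, where litter 4 reached into the control range. The change was -0.30 (limma adjusted p = 0.0603, SE 0.09) and -0.32 (adjusted p = 0.0319, SE 0.09), a level 0.801 times that of the controls at the higher dose. Psmb10 was called at the lower dose in 6 of 12 other settings. The call at the higher dose was lost without exposed litter 2, 3 or 5 (adjusted p = 0.0679, 0.0839, 0.0788) or control litter 2 or 5 (0.0824, 0.0674), and without control litters 2, 3 and 5 together the change was -0.22 (0.335). Psmb8, which replaces Psmb5, had changes of -0.04 and -0.17 (adjusted p = 0.877 and 0.299), and Psmb9, which replaces Psmb6, of -0.05 and -0.19 (0.871 and 0.35). Neither passed the test at either dose. The level of Psmb9 in exposed litters ran from 5.76 to 6.48, against 6.09 to 6.34 in the controls. Without exposed litter 1 the changes of Psmb8 and Psmb9 at the lower dose were both 0.01.

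Leukocyte markers, all 10 measured and none under the 40th percentile throughout in liver, had mostly negative changes beside that of Psmb10. They summed to log2 levels of 11.86 to 12.02 in the controls, 11.59 to 12.05 at the lower dose and 11.5 to 11.88 at the higher dose. Of the 10, 9 had negative changes at each dose, with medians of -0.11 and -0.23, and Coro1a, an actin regulator of leukocytes, fell at the higher dose by 0.33 (limma adjusted p = 0.0427). Erythroid markers summed to 12.77 to 12.96 in the controls, 12.58 to 12.75 at the lower dose and 12.59 to 13.08 at the higher dose, with Hba-a1 under the 40th percentile on all liver arrays of each group. Of 8 listed erythroid markers 6 were measured and 5 tested. All 5 had negative changes at the lower dose, with a median of -0.21, and 3 of 5 did at the higher dose, with a median of -0.04. Klf1, a transcription factor of red cell precursors, fell at the lower dose by 0.41 (limma adjusted p = 0.0249), from 10.62 to 10.21, with no overlap, beside the rise of core and cap genes. In such bulk tissue fewer cells of a type and less RNA per cell cannot be told apart, and the part of these cells in the Psmb10 result, or in those of the core and cap, was not tested.

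Of the activators, Psme1, the alpha subunit of the activator PA28, had levels from 9.62 to 9.81 in the control livers, 9.74 to 10.09 at the lower dose and 9.83 to 10.01 at the higher dose. Its change was 0.16 at each dose (limma adjusted p = 0.203 and 0.171), and only the higher dose was clear of the controls. Psme4, which encodes the nuclear activator PA200, changed by 0.07 and 0.01 (0.636 and 0.956). Psme3, the PA28 gamma subunit of the nucleus, was the most variable member, with control livers from 7.95 to 8.81 and exposed livers from 7.87 to 9.24, and its changes of -0.12 and 0.30 had 95% intervals from -0.59 to 0.35 and from -0.17 to 0.77.

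Summed up by litter, the 32 genes of core and cap without immunoproteasome and activators lay at a median of -0.06 to 0.04 from the control mean in the control livers. At the lower dose litters 1 to 5 had medians of 0.07, 0.19, 0.16, 0.15 and 0.18, with 25 to 31 of the 32 genes above the control mean. The litters at the higher dose had 0.19, 0.08, 0.14, 0.19 and 0.0. Litter 5 of the higher dose, with 17 of 32 genes above, thus lay within the controls, and the other 9 exposed litters were all above them. Between the doses no member was called (limma, 10 against 5 mg/kg/day, 0 of 38 and 0.00754% of all genes). No member had an unadjusted p under 0.05 there, beside 1035 of all 13269 genes. The difference between doses for Psmd4 was 0.12 with a 95% interval from -0.02 to 0.26, and for Psmb10 it was -0.02, from -0.21 to 0.17.

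**Figure D3:**
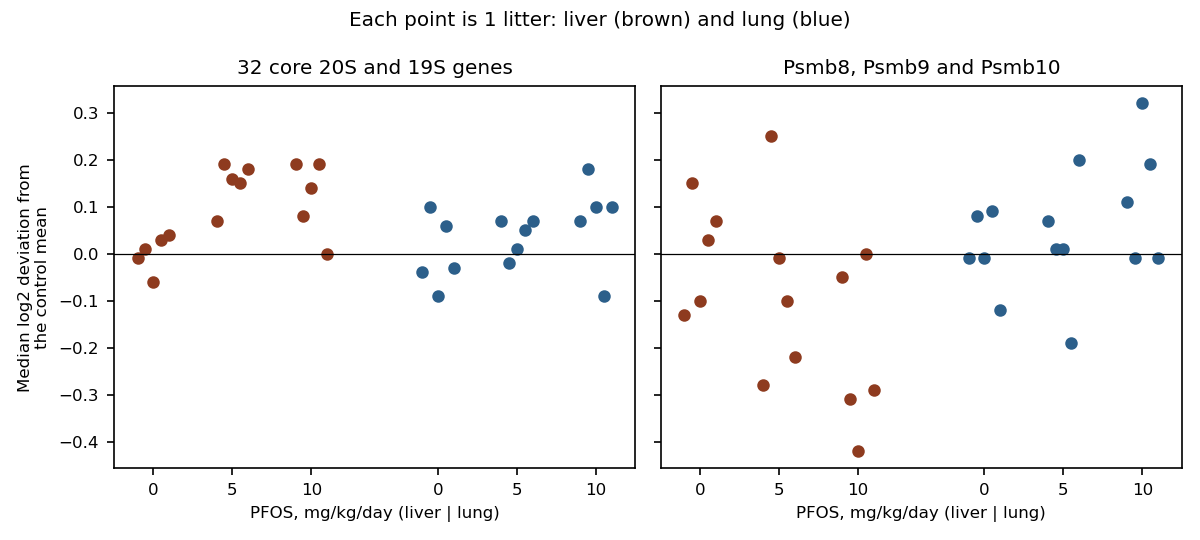
Median deviation from the control mean (log2, vertical axis) of the 32 core and cap genes (left) and of Psmb8, Psmb9 and Psmb10 (right) in each litter, by dose and tissue. In liver the core and cap medians of 9 of 10 exposed litters lie above 0.04, the highest control.

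In fetal lung 0 of the 38 members were called at the lower dose and 0 at the higher dose (limma adjusted p over 12897 genes), where 0.0155% and 0.0543% of all genes were called. An unadjusted p under 0.05 was reached by 0 of 38 members at 5 and by 2 of 38 at the higher dose. Over all 12897 genes it was reached by 596 and 891. No member was called between these doses, as for 0% of all genes. The 3 with the smallest p at the higher dose were Psmb1, a structural beta subunit, at 0.11 (limma adjusted p = 0.718), the ATPase Psmc2 at 0.13 (0.658) and Psmd5 at -0.11 (0.718). At the lower dose they were Psmb1 at 0.08, Psme3 at -0.24 and Psmb6 at 0.10, each with an adjusted p = 0.998. Psmb1 and Psmc2 have further probe sets, and the next brightest gave -0.17 at 5 and -0.09 at the higher dose for Psmb1 and -0.03 for Psmc2 at the higher dose. Changes were above 0 in 31 of 38 members at 5 and 34 of 38 at the higher dose, with medians of 0.04 and 0.08 against 0.004 and 0.005 over all genes. By litter the 32 core and cap genes had medians of -0.09 to 0.10 in the controls, -0.02 to 0.07 at the lower dose and 0.07, 0.18, 0.10, -0.09 and 0.10 at the higher dose, so the groups overlapped. The 3 immunoproteasome genes had changes of 0.08 to 0.19 at the higher dose, and 8 of 9 leukocyte markers tested in lung had positive changes, none of them called.

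The responses of the tissues differed for Psmd4 and Psmb10 in the test of the difference itself (limma, both tissues in 1 fit, 13856 genes). In lung, Psmd4 had 9.07, 9.19, 9.12, 9.23 and 9.06 in the controls, 9.13 to 9.22 at the lower dose and 9.12 to 9.3 at the higher dose, and its changes were 0.04 and 0.10. The liver change exceeded the lung change by 0.33 (adjusted p = 0.024, SE 0.08) at the lower dose and by 0.39 (adjusted p = 0.00279, SE 0.08) at the higher dose. For Psmb10, whose lung levels ran from 6.87 to 7.21 in the controls and from 7.01 to 7.26 at the higher dose, the difference was -0.46 (adjusted p = 0.0216, SE 0.12) at the higher dose. Of all genes 2.06% were called in this comparison at the lower dose (1.57% with a higher and 0.484% with a lower change in liver) and 3.89% at the higher (2.22% and 1.67%), and of the members 1 of 38 and 2 of 38. Psmd4 at the higher dose was called in all 20 fits without 1 litter (adjusted p from 0.00176 to 0.00759). At the lower dose its call was lost without exposed liver litter 2 (0.0510) or control lung litter 4 (0.0507), and without liver control litters 2, 3 and 5 (0.103). It was also lost with the Psmd4 probe sets averaged (0.159, at a difference of 0.18) and with the second probe set (0.0720, at 0.30). For Psmb10 the call was lost without liver control litter 2 (0.0503), without liver control litters 2, 3 and 5 (0.184), without lung litter 1 of 0 and 5 mg/kg/day (0.0555) and with only the groups compared in the fit (0.0542). For Psmc4 the difference was 0.37 (95% interval 0.16 to 0.58, adjusted p = 0.0583) and 0.22 (0.01 to 0.43, adjusted p = 0.278), so a tissue difference was not shown for it.

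Without PFOS, proteasome genes were higher in fetal liver than in fetal lung. Of the 38 members 31 were higher in liver and 0 lower (limma, control groups in the fit of all 30 arrays), in a comparison that called 83% of all genes, 42.6% as higher in liver and 40.4% as lower. The median difference was 0.31, against 0.04 over all genes, and Psmb1, at -0.08 and not called, was the single member with a negative value. The largest difference was that of Psme3, at 8.81, 8.62, 8.52, 8.04 and 7.95 in control livers and 7.3, 6.49, 7.14, 6.95 and 7.0 in control lungs, a difference of 1.41 (2.66-fold, SE 0.21, adjusted p = 5.41e-07). Psmb9 followed at 0.70 (1.62-fold), Psmb10 at 0.64 (1.55-fold) and the lid gene Psmd12 at 0.62. The values of these 4 genes did not overlap between tissues, which their choice as the largest differences makes likely. The share of all genes without overlap was not counted. Beside the immunoproteasome genes, all 10 leukocyte markers were higher in liver, with a median difference of 1.75. These differences rest on a normalization across tissues that differ in most genes.

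**Figure D4:**
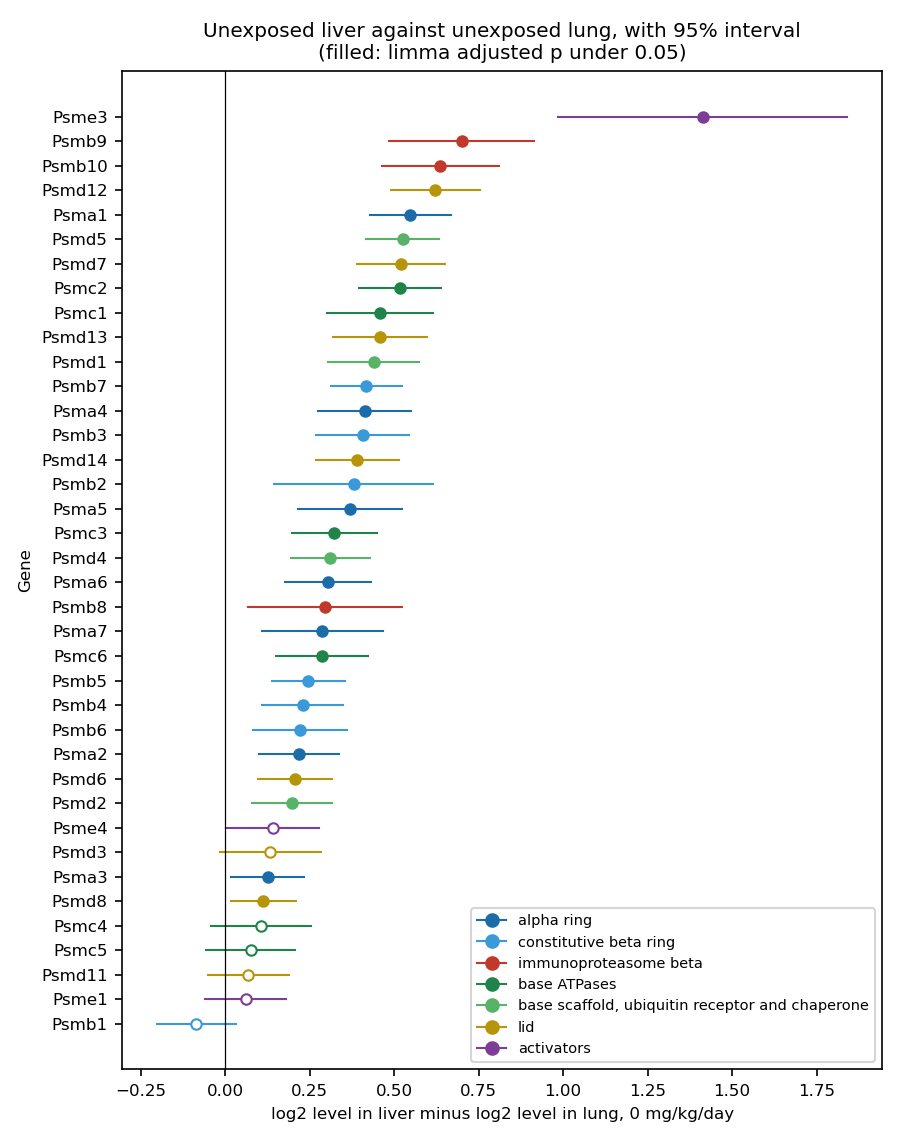
Difference between control liver and control lung (log2, horizontal axis) for the 38 measured genes (vertical axis, ordered by size and coloured by role), with 95% intervals. Filled points are called (limma adjusted p under 0.05), and 31 of 38 genes are called higher in liver and 0 lower.

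Genes that act with the proteasome were called about as often as other genes at the higher dose. Of 52 genes on 7 lists (assembly chaperones, other bound subunits, shuttle factors and p97, ubiquitin and E1 enzymes, transcription control, antigen processing and interferon control), 42 were measured and 41 tested in liver. None were called by limma at the lower dose (0 of 41), beside 6.07% of all genes. An unadjusted p under 0.05 was reached there by 13 of the 41, beside 2626 of all 13269 genes tested. At the higher dose 3 rose and 1 fell, beside 10.5% of all genes. Rad23b, which carries ubiquitinated proteins to the proteasome, had 8.67, 8.78, 8.65, 8.62 and 8.71 in the controls and 8.88 to 8.95 at the higher dose, a change of 0.24 (limma adjusted p = 0.00728, SE 0.05). It was called without any 1 litter and without control litters 2, 3 and 5. The call was lost with its probe sets averaged (0.15, adjusted p = 0.215) and with the second probe set (0.20, adjusted p = 0.489), the highest over 12 settings. Its change in liver exceeded that in lung by 0.29 (adjusted p = 0.0368). Ufd1, a cofactor of the unfolding ATPase p97, rose by 0.21 (adjusted p = 0.039, SE 0.06). All 8 tested shuttle and p97 genes had changes above 0 at both doses, with a median of 0.15 at each.

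Nfe2l1, which encodes the transcription factor that raises proteasome genes, had 6.73, 6.75, 6.8, 6.4 and 6.7 in the control livers, 6.71 to 7.06 at the lower dose and 6.9 to 7.07 at the higher dose. The higher dose lay clear of the controls, at a change of 0.30 (limma adjusted p = 0.0344, SE 0.08). The Nfe2l1 call was lost in 7 of the 10 fits without 1 litter, those without exposed litter 1 to 5 (adjusted p = 0.0521, 0.059, 0.05, 0.0569, 0.0833) and without control litter 4 or 5 (0.0790, 0.0562). It was also lost with no filter (0.0511) and without control litters 2, 3 and 5 (0.0714), where the change was 0.41. Nfe2l2, a related factor of oxidative stress responses, changed by 0.24 (adjusted p = 0.0942) and was not called. With its second probe set it changed by 0.51 (0.0295), and with probe sets averaged by 0.37 (0.00265), both called. It was also called with both tissues in 1 fit (0.0454) and without exposed litter 5 (0.0383). Other genes of these lists at the higher dose included Pomp, the maturation factor of the core, at 0.01 (adjusted p = 0.944), the core assembly chaperone Psmg4 at 0.12 (0.217), Ecpas, an adaptor of the proteasome, at 0.20 (0.0964, and 0.0477 without exposed litter 2), and the E1 enzyme Uba6 at 0.06 (0.658).

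The Ufd1 change was 0.12 with its probe sets averaged (limma adjusted p = 0.0974), 0.03 with the second probe set (0.817) and 0.13 without control litters 2, 3 and 5 (0.413), none of them called. The Ufd1 call was also lost with no filter (0.0635), with only the groups compared (0.0941) and in 8 of 10 fits without 1 litter, those without exposed litter 1, 2, 4 or 5 (adjusted p = 0.0596, 0.0846, 0.0742, 0.0531) and control litter 1, 2, 3 or 5 (0.0572, 0.0601, 0.0847, 0.0681). Of 9 tested antigen processing genes, Pdia3, a disulfide isomerase of peptide loading, fell at the higher dose by 0.24 (limma adjusted p = 0.0488). The Pdia3 call was lost without exposed litter 1, 2, 3 or 4 (0.0808, 0.0549, 0.101, 0.116) or control litter 1, 2, 4 or 5 (0.0709, 0.122, 0.101, 0.0655). It was also lost in 7 of 12 other settings, with the Pdia3 change at -0.13 with the second probe set (0.545), -0.19 with probe sets averaged (0.128) and -0.25 without control litters 2, 3 and 5 (0.214). Irf1, a factor of the interferon response, had a change of -0.08 (0.598), and 0.01 without control litters 2, 3 and 5. Psmb9, Tap1, Psmb8 and Tap2 are neighbours in that order in the RefSeq annotation of protein-coding genes, and the peptide transporter genes Tap1 and Tap2 had changes of 0.16 and -0.07 at the higher dose (adjusted p = 0.440 and 0.680). The class I genes H2-K1 and H2-D1, named after their values were seen, had higher means than the controls at both doses in both tissues. In liver the means at 0, 5 and 10 mg/kg/day were 8.73, 9.29 and 9.15 for H2-K1 and 9.25, 9.83 and 9.66 for H2-D1. In lung they were 9.0, 9.8 and 9.54 for H2-K1 and 9.5, 10.38 and 10.14 for H2-D1. The means were thus highest at the lower dose, and the SDs of the control groups ran from 0.40 to 0.51. No antigen processing gene was called higher at either dose in either tissue. Of the 9 in liver, 4 had positive and 5 negative changes at the higher dose.

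Litters that were high in one core or cap gene tended to be high in the others. After the dose means were subtracted, the median Pearson correlation over the 496 pairs of the 32 core and cap genes was 0.449 across the 15 liver arrays and 0.569 across the 15 lung arrays, against 0.00226 and 0.0139 over all pairs of genes tested. Within the immunoproteasome trio the median was 0.787 in liver and 0.634 in lung. These values describe arrays that share the normalization, the extraction and any difference in tissue makeup between litters.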

How the data were processed

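The deposited values are log2 probe set levels made with RMA, per the submitters' processing notes. That method subtracts background, brings the arrays to 1 distribution and fits 1 value per probe set. The RMA version is not given in the sources used here, nor whether liver and lung were normalized as 1 set, and the number of arrays limits the precision. Of 45101 probe sets, 34945 had 1 gene symbol in the platform annotation, 932 had several, 9160 none and 64 were array controls. For each of the 18193 genes the brightest probe set, by its mean over 30 arrays, was used. Genes were tested in a tissue where at least 5 of its 15 arrays had them over the array's 40th percentile. Differences were tested on the log2 scale with limma 3.58.1 (R 4.3.3, lmFit with 1 mean per dose, eBayes, two-sided), with Benjamini-Hochberg adjustment over all genes tested. Differences between tissues used 1 fit of all 30 arrays. The fits were tested on simulated data with known changes added at the higher dose. In liver 3 of 50 changes of 0.2 and 13 of 50 changes of 0.3 were called. In lung the counts were 3 of 50 and 19 of 50. The simulation removed the dose differences of the data and changed 50 genes per size. In the data 1395 genes were called in liver at the higher dose and 7 in lung. The cutoff that the adjustment sets thus differs from that of the data, and these counts do not give the share found there. A gene that was not called may still have changed by that much. All 30 value columns were mapped to samples.

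The members, roles, gene lists and alternatives were chosen with earlier results of these data known, including control litters 2, 3 and 5 of the liver, set aside for Cym. Genes named were, per role, the called members with the biggest changes, at most 4 (or the 2 with the smallest p) in liver at each dose, always Psmb5 to Psmb10 and Psme1, any member called between tissues, the 3 with the smallest p in lung, the 4 largest tissue differences each way, and up to 2 called genes per pathway list (or the 1 with the smallest p), always Nfe2l1, Nfe2l2 and Pomp. Others are marked as chosen after their values were seen or come with a sequence match. Litters are the replicates, as the labels state. Alternatives were the filter, the normalization, the samples in the fit, the probe set, the variance model, array weights, the replicate number as a block (together with the dose between tissues), and litters left out. Python 3.11.15 drew the figures and searched the promoters.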

Additional observations from a re-analysis of the deposited data

Results flagged for a closer look

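Of 228 groups of 5 litters (38 genes, 2 tissues, 3 doses), 15 had a highest or lowest litter whose gap to the next, divided by the range of the group, was above 0.71. Chance alone gives about 1 group in 20, or 11.4 here. In the control livers these were Psma3 at 10.28 in litter 5 (the others 10.12 to 10.16), Psmb7 at 10.53 in litter 2 and Psmd12 at 8.62 in litter 3. Liver litter 1 at 5 mg/kg/day was low in Psmb1, at 9.91, and in Psmb4, at 10.28. At 10 mg/kg/day liver litter 4 had Psmb5 at 9.55 and liver litter 5 had Psmd12 at 8.8. In the control lungs Psmc5 was 8.27 in litter 3, Psmd7 was 7.93 in litter 2 and Psmd8 was 9.69 in litter 4. Lung litter 2 at 5 mg/kg/day was low in Psmc5, at 8.38, and in Psmd8, at 9.41. Lung litter 4 at 10 mg/kg/day was low in Psmc6, at 8.71, and in Psmd2, at 9.0, and lung litter 5 had Psme1 at 9.88.

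Liver and lung differed in their response in the test of the difference itself for Psmd4, whose liver change was larger by 0.33 (limma adjusted p = 0.0240) at the lower dose and 0.39 (adjusted p = 0.00279) at the higher, and for Psmb10, by -0.46 (adjusted p = 0.0216) at the higher.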

How the results depend on the processing

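In liver 5 members were called at the lower dose (5 mg/kg/day) and 8 at the higher (10 mg/kg/day). At the lower dose the count was 3 without a filter, with the second probe sets and with the replicate block, 9 with both tissues in 1 fit and with array weights, 11 with the stricter filter and with a trended, robust spread, and 1 without control litters 2, 3 and 5. At the higher dose it was 3 with only the groups compared, 5 with the replicate block and 2 without those litters. Leaving out 1 litter gave 3 to 6 and 3 to 8 calls. The share of all genes called under each setting is not given beside these counts, so a moved count may not be particular to the members. Fits without control litters 2, 3 and 5 also have less power, as only control litters 1 and 4 remain. The difference between tissues had 1 call at the lower dose, and 2 with the stricter filter or trended spread, and 0 with the second probe sets, the replicate block or without those litters. At the higher dose it had 2 calls, and 1 with only the groups compared, without those litters, or without lung litter 1 of 0 and 5 mg/kg/day. Without 1 litter these counts were 0 to 2 and 1 to 2, and the unexposed tissues gave 29 to 32. Lung and the comparison of the doses gave 0 calls under all settings run. Signs turned for values near 0: Psmb8 (0.023 with probe sets averaged, -0.11 to 0.0077 without 1 litter) and Psmb9 (-0.13 to 0.012 without 1 litter) in liver at the lower dose, Pomp (-0.0088 with quantile normalization, -0.015 to 0.039 without 1 litter), Uba6 (-0.035 averaged) and Irf1 (0.011 without control litters 2, 3 and 5) at the higher dose, and in lung Psmb1 (-0.075 averaged and -0.17 with the second probe set at the lower, and -0.089 with the second at the higher dose) and Psmc2 (-0.026 with the second at the higher dose). Causes were not tested. Same-numbered liver and lung arrays had correlations of deviations from 0.0729 to 0.141 at 0, -0.00209 to 0.295 at 5 and 0.114 to 0.228 at the higher dose, and correlated best with their own number in 5, 3 and 5 of 5. This is a hint from the data that numbers may be shared. Since the labels do not state it and not every correlation was over 0.1 at 0 and 5 mg/kg/day, the numbers were not taken to pair litters. The main tests between tissues thus treated liver and lung arrays as independent, which ignores a pairing if there is one. The replicate block stood for 2 different fits. Between tissues it was the dose and number together, and within a tissue it was the number shared across doses, which are different dams. Liver arrays of different doses correlated best with their own number in 2, 2 and 0 of 5. The block within a tissue thus has no known pairing behind it. With the replicate block the calls of Psmd2 (adjusted p = 0.0594) and Psmd11 (0.0620) in liver at the lower dose, of Psma7 (0.0558), Psmb10 (0.0596), Psmd1 (0.0553) and Pdia3 (0.0771) at the higher dose, and of the Psmd4 difference between tissues at the lower dose (0.0910) were lost. With only the groups compared the liver calls of Psma5 (0.0637), Psma7 (0.0571), Psmb10 (0.0697), Psmd1 (0.0588), Psmd11 (0.0611) and Pdia3 (0.0534) at the higher dose were lost. Small changes near background are compressed by RMA.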
